A study of Mus musculus with 2 samples.

Results

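The genes Mir199a-1, Mir199a-2, Mir199b, Mir214, Mir140 and Mir455 make microRNAs known from meningeal, skeletal and other mesenchyme, and were chosen by gene name from the deposited tables. All 6 were found among the 1973 microRNA genes listed there. They were measured in forebrain dissected from B6NCrl mouse embryos at embryonic day 13.5, with no treatment named, in 2 small RNA libraries of 1 group, biological replicates 2 and 1. Each library came from tissue pooled over males and females. The replicates have separate biosample identifiers and 1 donor identifier, so the spread between them may in part be technical. The libraries were limited to RNA under 30 nt.

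MicroRNAs are cut from hairpin precursors into arms, named 5p and 3p, and an arm guides silencing of messenger RNAs mainly through its seed, bases 2 to 8 of the arm. Mir199a-2 and Mir214 are carried by the non-coding transcript Dnm3os, which in mouse is needed for normal growth and skeletal development and is expressed in mesenchyme. Mir140 is a microRNA of cartilage, and mice without it have shortened skeletal elements and a changed face. Mir455 lies in the collagen gene Col27a1 and is likewise made in cartilage. At this stage the forebrain is wrapped by the forming meninges and by head mesenchyme.

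All 6 genes had an entry in the RefSeq microRNA table (build GRCm38.p6), with 10 mature arms of 7 distinct sequences and 7 distinct seeds. For Mir140 and Mir199b it listed 1 arm each, the 3p arm. The arms are shown because their sequences differ in whether they name 1 gene or several. Capitals mark the seed.
miR-199a-5p, of Mir199a-1 and Mir199a-2: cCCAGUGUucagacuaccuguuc
miR-199a-3p and miR-199b-3p, of Mir199a-1, Mir199a-2 and Mir199b: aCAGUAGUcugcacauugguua
miR-214-5p: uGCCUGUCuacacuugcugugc
miR-214-3p: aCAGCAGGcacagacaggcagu
miR-140-3p: uACCACAGgguagaaccacgg
miR-455-5p: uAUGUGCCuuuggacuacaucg
miR-455-3p: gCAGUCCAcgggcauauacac

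The miR-199 3p arm was identical in all 3 Mir199 genes, and the 5p arm was identical in Mir199a-1 and Mir199a-2. No listed arm of Mir214, Mir140 or Mir455 occurred in another gene of the table. The seed of the miR-199 3p arm stood in these 3 member genes and no other, and those of miR-199a-5p, miR-214-5p and miR-455-3p in no gene outside the 6 either. The remaining seeds had 1 further gene each. Mir761 shared that of miR-214-3p and had 0 counts in both libraries. Mir497b shared that of miR-140-3p, with 3 counts in replicate 2 and 2 in replicate 1, and Mir5129 that of miR-455-5p, also with 3 in replicate 2 and 2 in replicate 1. Among the listed genes, the microRNAs with these seeds were therefore counted almost wholly on the 6 genes. The seed of the 5p arm of Mir140, which was not listed, was not compared. Base composition varied among the listed arms: GC content ran from 40.9% in the miR-199 3p arm to 59.1% in miR-214-3p. It was not compared with that of other genes.

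The loci, given on GRCm38 (mm10) with GENCODE M21, a later release than the M4 annotation of the tables, fall into 2 arrangements. The dynamin loci lie opposite their protein-coding gene. Mir199a-2 (ENSMUSG00000070126.1, chromosome 1, 162217814 to 162217923, plus strand) and Mir214 (ENSMUSG00000065516.1, chromosome 1, 162223368 to 162223477, plus strand) start 5554 bases apart in exons of Dnm3os and lie inside an intron of Dnm3 on the other strand. Mir199a-1 (ENSMUSG00000065547.1, chromosome 9, 21496495 to 21496564, minus strand) lies opposite an intron of Dnm2. Mir199b (ENSMUSG00000092807.1, chromosome 2, 32318460 to 32318569, plus strand) lies opposite an intron of Dnm1.

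Mir140 and Mir455 lie on the same strand as their host. Mir140 (ENSMUSG00000065439.1, chromosome 8, 107551244 to 107551313, plus strand) is intronic in Wwp2, which encodes a ubiquitin ligase, except that 1 of the 11 annotated Wwp2 transcripts, a retained intron, covers it. Mir455 (ENSMUSG00000070102.1, chromosome 4, 63256851 to 63256932, plus strand) lies in an intron of Col27a1. Besides the pair in Dnm3os, the only annotated microRNA gene within 10 kb of a member was Gm23363, 116 bases from Mir199b on the same strand, with 0 counts in replicate 2 and 1 in replicate 1. No read fell on the opposite strand of any of the 6 genes in either library.

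Replicate 2 had 3908953 counts on microRNA genes and replicate 1 had 4117752, so that 1 count equals 0.256 CPM (counts per 1000000 gene counts) in replicate 2 and 0.243 CPM in replicate 1. Detection was set at 10 or more counts in both libraries, and 377 genes reached it. Values are counts on the strand of the gene, with both arms of a hairpin together. A read spans a whole mature arm of 21 to 23 nt, so CPM was not divided by length. CPM compares reads, since the efficiency of capture of each microRNA was not measured. As a check of the tissue label, Mir92b and Mir137, of neural progenitors and neurons, had 12964 and 6750 CPM in replicate 2 and 13897 and 8954 CPM in replicate 1. They are the 2 highest of the 12 neural genes measured, and endothelial Mir126a stood above both. The genes of the neuronal microRNA miR-124, which share windows of sequence with each other, had 0.767 to 4.86 CPM in replicate 2 and 0.729 to 4.86 CPM in replicate 1.

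Mir140 led the group in both libraries. It had 11310 counts in replicate 2 (2893 CPM) and 13053 in replicate 1 (3170 CPM), a mean of 3032 ± 196 CPM (SD, n = 2, as for all means below). This placed it at rank 61 of 377 detected genes, above 83.8% of them. Together the 6 genes held 13047 counts in replicate 2, or 0.334% of the gene counts (95% Wilson interval 0.328 to 0.340), and 15602 counts in replicate 1, or 0.379% (0.373 to 0.385). Mir140 alone made up 85.2% ± 2.14 of these counts. Without it the share was 0.0444% in replicate 2 and 0.0619% in replicate 1. Because this is bulk tissue, the type of cell that these counts came from was not measured. The number of such cells and the microRNA per cell cannot be told apart.

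**Figure D1:**
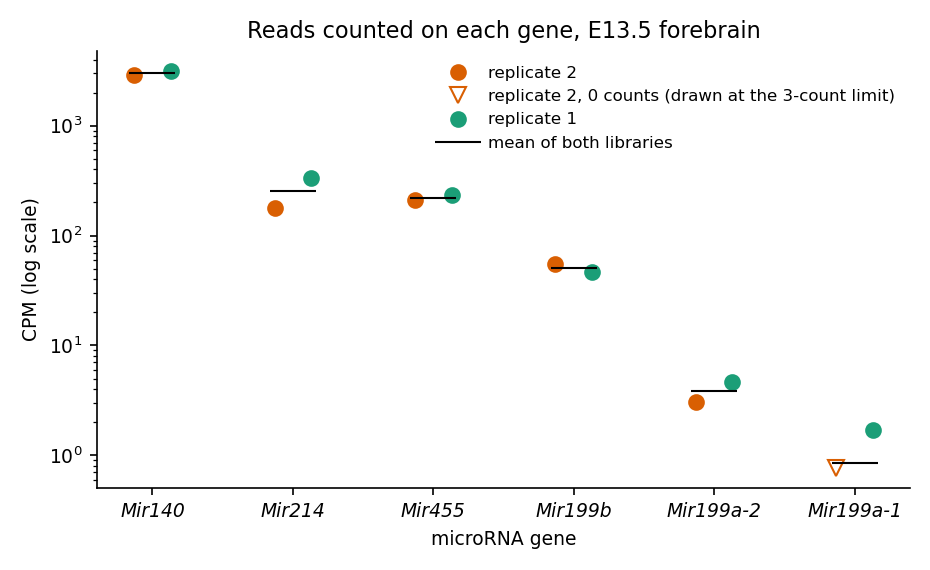
CPM of each gene (log scale) in replicate 2 and replicate 1, with the mean of both as a bar. Mir140 is at 2893 CPM in replicate 2 and 3170 CPM in replicate 1, Mir214 and Mir455 change order between the libraries, and Mir199a-1 has 0 counts in replicate 2, drawn at the limit of 0.767 CPM that a count of 0 allows.

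Mir214 and Mir455 came next, at similar mean levels. Mir214 had 693 counts in replicate 2 (177 CPM) and 1376 in replicate 1 (334 CPM), a mean of 256 ± 111 CPM. Mir455 had 816 counts in replicate 2 (209 CPM) and 955 in replicate 1 (232 CPM), a mean of 220 ± 16.4 CPM. Their means differed by 35.4 CPM, less than the SD of Mir214, and their order was not the same in the libraries: the ratio of Mir214 to Mir455 was 0.849 in replicate 2 (exact 95% interval 0.766 to 0.941) and 1.44 in replicate 1 (1.33 to 1.57). The ratio of Mir140 to Mir455 was steadier. So was that of Mir140 to neural Mir92b, at 0.223 in replicate 2 and 0.228 in replicate 1. A steady ratio is thus not particular to the cartilage genes. Mir140 exceeded Mir455 13.9-fold in replicate 2 (12.9 to 14.9) and 13.7-fold in replicate 1 (12.8 to 14.6), whereas it exceeded Mir214 16.3-fold in replicate 2 (15.1 to 17.6) and 9.49-fold in replicate 1 (8.97 to 10.04).

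The Mir199 genes had the fewest counts. Mir199b had 216 in replicate 2 (55.3 CPM) and 192 in replicate 1 (46.6 CPM), a mean of 50.9 ± 6.10 CPM at rank 241. Mir199a-2 had 12 in replicate 2 (3.07 CPM) and 19 in replicate 1 (4.61 CPM), a mean of 3.84 ± 1.09 CPM at rank 363 of the 377. Mir199a-1 had 0 in replicate 2 and 7 in replicate 1 (1.70 CPM), and was the member that did not reach detection. A count of 0 allows up to 3 counts, or 0.767 CPM, in replicate 2. Every other step in the order of mean levels, from Mir140 down to Mir199a-1, was larger than the SD of either neighbour and had the same direction in both libraries, the exception being Mir214 and Mir455.

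**Figure D2:**
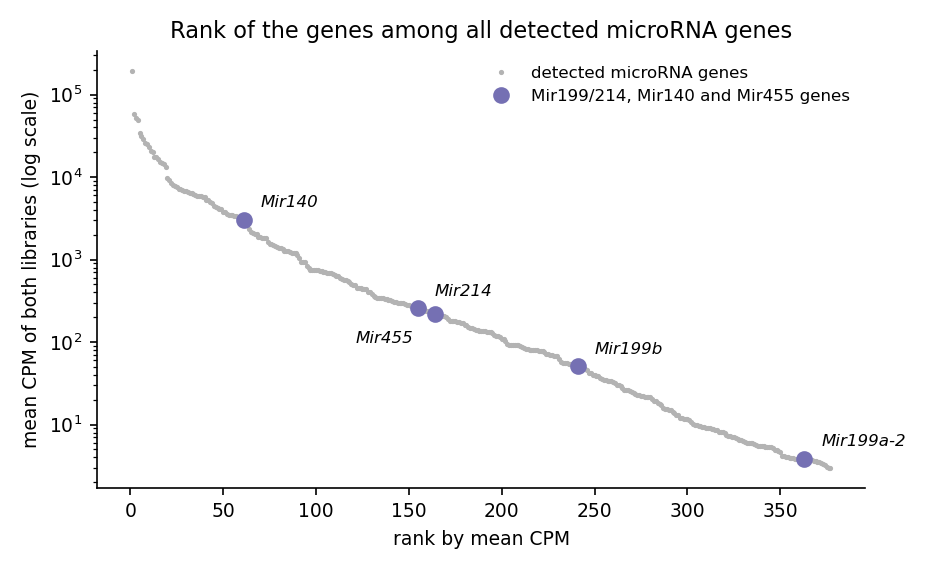
Mean CPM (log scale) against rank for the 377 detected microRNA genes in grey, with the 5 detected members in purple. Mir140 stands in the upper part at rank 61, Mir214 at 155 and Mir455 at 164 near the middle, Mir199b at 241, and Mir199a-2 at 363 near the end of the detected range.

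The 2 microRNAs of Dnm3os therefore differed widely in counts. The annotation places both in exons of this gene, but of its 6 transcripts 5 have an exon at Mir199a-2 and 3 at Mir214. Mir214 exceeded Mir199a-2 by 57.8-fold in replicate 2 (exact 95% interval 32.8 to 112) and by 72.4-fold in replicate 1 (46.2 to 121). Likewise Mir199b exceeded Mir199a-2 by 18.0-fold in replicate 2 (10.1 to 35.4) and by 10.1-fold in replicate 1 (6.30 to 17.2). These counts have to be read beside the sequences. The tables count multi-mapped reads in a separate row. That they add no count to any gene is inferred from this row, since the counting tool is not named. They made up 43.9% of the reads of replicate 2 and 40.6% of those of replicate 1.

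The RefSeq hairpins of the 3 Mir199 genes are shown because they hold the bases that can tell the genes apart. Capitals mark the bases identical to the miR-199a-5p and miR-199a-3p arms.
Mir199a-1 (chr9:21496495-21496564, minus strand): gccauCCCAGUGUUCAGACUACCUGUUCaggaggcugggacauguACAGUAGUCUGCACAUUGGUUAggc
Mir199a-2 (chr1:162217814-162217923, plus strand): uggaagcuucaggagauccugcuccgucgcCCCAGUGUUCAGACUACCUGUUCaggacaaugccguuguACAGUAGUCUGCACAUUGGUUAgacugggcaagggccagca
Mir199b (chr2:32318460-32318569, plus strand): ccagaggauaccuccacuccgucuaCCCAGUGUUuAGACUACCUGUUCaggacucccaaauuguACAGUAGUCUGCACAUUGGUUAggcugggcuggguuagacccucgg

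The Mir199b hairpin differs from the miR-199a-5p arm by 1 substitution, C10U, counted from 1 at the 5′ end of the arm, with the base of miR-199a-5p first. It lies outside the seed. Every 22-base window inside either arm of Mir199a-1 and Mir199a-2 occurred in another annotated microRNA gene. In Mir199b the window of the 3p arm occurred in both of the other genes, and neither of the 2 windows at the 5p position occurred in another gene. Over the whole annotated hairpins, 36 of 49 windows were unique to Mir199a-1, 77 of 89 to Mir199a-2 and 81 of 89 to Mir199b. None of these unique windows of Mir199a-1 and Mir199a-2 lies within an arm. They reach past the end of an arm or, for some of Mir199a-2, lie wholly outside both arms. All windows of Mir214, Mir140 and Mir455 were unique: 89, 49 and 61. The search covered the 2202 microRNA transcripts of GENCODE M21 in both orientations and not the genome. A read that lies wholly within a shared window fits more than 1 gene. How many of the multi-mapped reads were miR-199 was not measured, so the low ranks of the Mir199 genes describe counted reads and not the amount of miR-199.

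**Figure D3:**
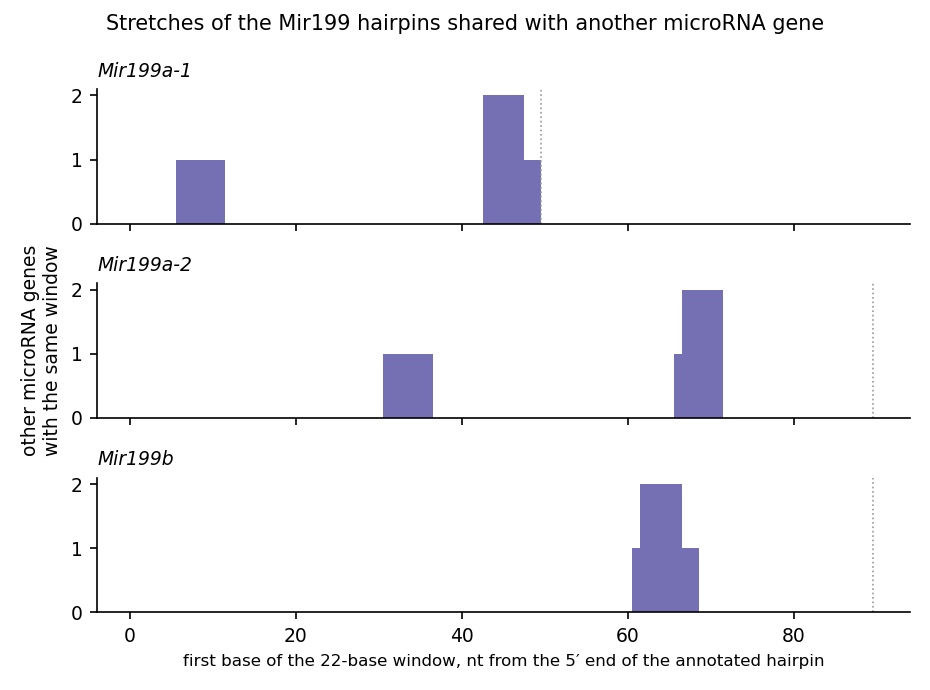
Number of other annotated microRNA genes that hold the same 22-base window, by the first base of the window along each Mir199 hairpin (nt from its 5′ end); the dotted line marks the last window of the hairpin. Mir199a-1 and Mir199a-2 have shared windows at both arms, and Mir199b at the 3p arm only.

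The same split can be set beside the 916 genes, of the 1973 in the tables, that had a listed arm. The others were left out of this comparison. Of the 34 genes whose listed mature arms were all identical to an arm of another gene, Mir199a-1, Mir199a-2 and, by its listed 3p arm alone, Mir199b among them, 8 were detected (23.5%). Of the 829 genes with no listed arm shared, which hold Mir214, Mir140 and Mir455, 296 were detected (35.7%), and of the 53 with some arms shared 37 were (69.8%). Among the detected genes of each class, the median of mean CPM was 48.3 with every listed arm shared, 143 with none and 238 with some. A gene with 1 listed arm cannot fall in the class with some arms shared, so the classes also depend on how many arms are listed. Whether arm sharing lowered the counts of the Mir199 genes was not tested.

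Between the libraries, Mir214 was the member that stood apart. Its log2 ratio of replicate 2 over replicate 1 after TMM normalization was -0.81 (exact 95% counting interval -0.94 to -0.67), or 0.572-fold. It was the 1 member past 1.5-fold, of the 5 that were detected and so compared, while 11.4% of all 377 compared genes were past 1.5-fold, and 7.43% lower in replicate 2 by that much. Read against this background, 1 of 5 is no result about the group. Of all 377 genes, 15 had a lower ratio than Mir214 (3.98%). None of the 15 was among the 154 genes with a higher mean CPM, of which 3 were past 1.5-fold lower. Of the 15, the 3 highest in level were Mir448 (-0.88), Mir182 (-0.94) and Mir183 (-0.81). With 1 library on each side there is no test, and the intervals cover counting error only.

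The other members were closer to equal. Mir140 had a log2 ratio of -0.02 (-0.06 to 0.01) and Mir455 of -0.04 (-0.18 to 0.09). Of all compared genes, 95.2% differed more than Mir140 and 90.2% more than Mir455. Mir199b was higher in replicate 2, at 0.35 (0.07 to 0.64). Mir199a-2 was at -0.46 with an interval from -1.65 to 0.64, wide enough to hold both an equal level and the value of its transcript partner Mir214. The counting interval left out 0 for 2 of the 5 members, Mir214 and Mir199b, against 52% of all compared genes. The median log2 ratio was -0.04 for the members and 0.03 for all compared genes. With library totals in place of TMM, all ratios moved by -0.11, and the interval of Mir199b then held 0 (-0.04 to 0.53) while those of Mir140 (-0.17 to -0.10) and Mir455 (-0.29 to -0.02) left it out. With DESeq2 size factors that of Mir140 left it out (-0.11 to -0.03).

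**Figure D4:**
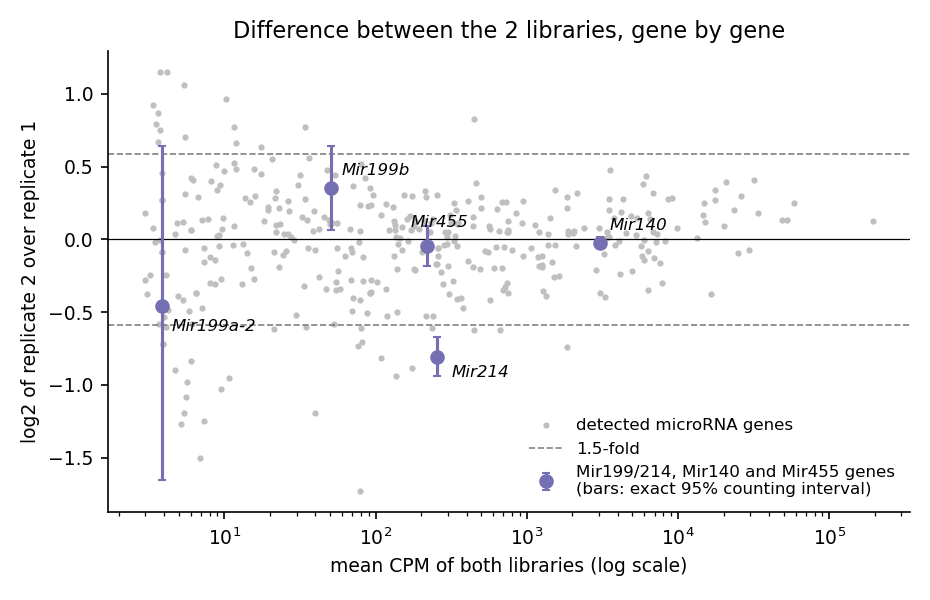
Log2 of replicate 2 over replicate 1 against mean CPM (log scale) for the 377 detected genes in grey, with the detected members in purple and their exact 95% counting intervals. Dashed lines mark 1.5-fold. Mir214 lies at -0.81, below the lower line, and Mir140 and Mir455 lie near 0.

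The genes nearest in level over the 2 libraries, by distance of log2(CPM + 1), held none of the other mesenchymal genes listed. Mir140 was nearest to Mir298 (distance 0.0759) and Mir1983 (0.151), and Mir455 to Mir301b (0.101) and Mir700 (0.121). Mir214 was nearest to Mir138-2 (0.179) and Mir302b (0.208). Mir199b was nearest to Mir1981 (0.131) and Mir190a (0.159), and Mir199a-2 to Mir8101 (0.0611) and Mir1982 (0.0937). This measure uses the level in both libraries, so a like ratio between them is part of the choice.

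Other microRNAs of mesenchyme, fibroblasts and skeletal tissue were detected for 10 of the 12 genes in the tables (13 listed). Of the 10, 0 were past 1.5-fold in either direction, against 11.4% of all compared genes, which for 10 genes is no result about the list. Their median log2 ratio was 0.13, with 8 higher and 2 lower in replicate 2, and 0.02 with 6 higher and 4 lower under library totals. Mir23b, which leads them, had 5427 CPM in replicate 2 and 6463 in replicate 1. Mir21a, a microRNA raised in activated fibroblasts, had 4419 CPM in replicate 2 and 4624 in replicate 1.

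Vessel wall and endothelial genes were higher in replicate 2 for all 3 detected genes, also with DESeq2 size factors, library totals and counts of either strand. With 47.7% of all compared genes lower in replicate 2, 3 genes are too few for a result about the list. The interval of Mir145a (-0.16 to 0.42) held 0, and 0 of the 3 were past 1.5-fold. The summed level of the 4 measured genes was 22848 CPM in replicate 2 and 19172 CPM in replicate 1, and Mir145b was at 0 in both. Mir126a, of endothelium, had a log2 ratio of 0.34 and Mir143, of smooth muscle and pericytes, of 0.47. Mir140 stood close to Mir143, at 0.729 of its counts in replicate 2 and 1.03 in replicate 1, and below Mir126a, at 0.154 of its counts in replicate 2 and 0.198 in replicate 1.

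Of all compared genes, 47.7% were lower in replicate 2 (63.7% with library totals and 52.8% with DESeq2 size factors), and other lists are read against these shares. Choroid plexus and multiciliated cell genes summed to 7000.3 CPM in replicate 2 and 9799 CPM in replicate 1. Of these 7 genes, all detected, 6 were lower in replicate 2 (7 with library totals or DESeq2 size factors) and 2, Mir34c and Mir34b, were past 1.5-fold, with a list median of -0.39. The intervals of Mir211 and Mir449c, also lower, held 0. Mir449a led at 5355 CPM in replicate 2 and 7348 in replicate 1, and Mir204 had 1109 CPM in replicate 2 and 1569 in replicate 1.

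Genes of the Hox loci, which are expressed behind the forebrain, summed to 293 CPM in replicate 2 and 446 CPM in replicate 1. All 4 detected genes of 6 were lower in replicate 2, with a median of -0.33, and 0 were past 1.5-fold (2 with library totals). The intervals of Mir196b and Mir615 held 0. Mir10a had 170 CPM in replicate 2 and 263 in replicate 1, and Mir10b had 93.1 CPM in replicate 2 and 145 in replicate 1. Striated muscle genes summed to 43.7 CPM in replicate 2 and 55.6 CPM in replicate 1, with 4 of 8 detected, 3 of them lower in replicate 2 and 1 past 1.5-fold. Mir206, of skeletal muscle, had 13 counts in replicate 2 and 43 in replicate 1, while Mir208b had 132 in replicate 2 and 156 in replicate 1. The intervals of Mir208b and Mir499, also lower, held 0. The defining muscle genes Mir1a-1, Mir133b, Mir133a-1 and Mir133a-2 were at 0 in both libraries. Of these, Mir1a-1, Mir133a-1 and Mir133a-2 share windows with another microRNA gene, so a count of 0 does not show that they were absent. The part of any of these lists in the difference of Mir214 was not tested.

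With TMM, the remaining lists had 1 gene past 1.5-fold lower and 1 higher between them. Epithelial and skin genes summed to 1597 CPM in replicate 2 and 1684 CPM in replicate 1, led by Mir203 (1343 CPM in replicate 2, 1409 in replicate 1) and Mir429 (134 CPM in replicate 2, 135 in replicate 1). Of their 7 detected genes 6 were higher and 1 lower in replicate 2, with a median of 0.10, against 3 higher and 4 lower, with a median of -0.01, under library totals. Blood and leukocyte genes summed to 345 CPM in replicate 2 and 418 CPM in replicate 1, with 5 of 5 measured genes detected. Mir451a, of red cells, had 34.3 CPM in replicate 2 and 123 in replicate 1 (log2 ratio -1.73, the lowest of the 377 genes), while its neighbour Mir144 had 42.0 CPM in replicate 2 and 26.5 in replicate 1 (0.77). Mir155 (157 CPM in replicate 2 and 170 in replicate 1) and Mir223 (102 CPM in replicate 2 and 89.4 in replicate 1) led that list. Neural genes had 5 of 10 detected genes lower in replicate 2, or 9 with library totals and 8 with DESeq2 size factors, and 0 past 1.5-fold, with a summed level of 23551 CPM in replicate 2 and 27268 CPM in replicate 1.

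**Figure D5:**
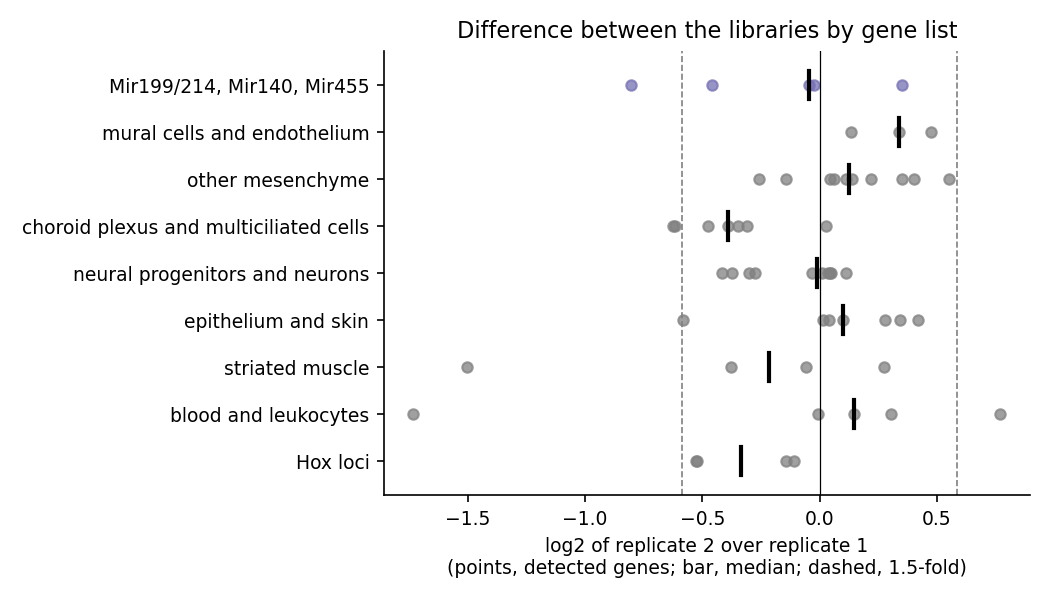
Log2 of replicate 2 over replicate 1 for the detected genes of each list (points) with the list's median (bar); dashed lines mark 1.5-fold. Mir214 is the leftmost purple point at -0.81, the choroid plexus and Hox medians lie at -0.39 and -0.33, and the vessel list lies to the right of 0.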

How the data were processed

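The authors deposited whole-number counts of reads per microRNA gene, 1 table per library, on mm10 with annotation M4, per the accompanying read-me files. Sources used here name neither aligner nor counter. The deposited columns count both strands together, the own strand of the gene (used here) and the opposite strand. Their 4 summary rows, left out of totals, held 62.6% of reads in replicate 2 and 61.3% in replicate 1. Names came from GENCODE M21, which matched 1894 of 1973 identifiers, and sequences from RefSeq.

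CPM, log2 ratios (edgeR 4.0.16 TMM, prior count 0.5, R 4.3.3) and exact Clopper-Pearson intervals were computed here. Genes at 10 or more counts in both libraries were compared, with a threshold of 1.5-fold. With 1 group there was no test of conditions. Intervals cover counting error only and take reads as independent, which PCR duplicates are not. The ratio step was tried on simulated Poisson counts with library totals, which tests neither the TMM scaling nor the spread between replicates. The members and lists were chosen with earlier results of these data known. Named genes were the members, their 2 nearest genes in level, genes sharing a seed or within 10 kb, and the 2 leading genes of each list. Mir34b, Mir34c, Mir206, Mir145a, Mir145b, Mir211, Mir449c, Mir196b, Mir615, Mir499, Mir451a, Mir144, Mir448, Mir182, Mir183, the Mir124a genes and the muscle genes at 0 were named after their values were seen. Alternatives were DESeq2 1.42.0 size factors, library totals, either-strand counts, other filters and all reads as the total.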

Additional observations from a re-analysis of the deposited data

Results flagged for a closer look

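Multi-mapped reads, which stand in a row of their own and were taken to add to no gene, numbered 4589546 in replicate 2 and 4315754 in replicate 1. They were looked at because they lie outside the counts used here and far above the 3 reads that a count of 0 allows. Which microRNAs they came from was not measured.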

How the results depend on the processing

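The 5 member ratios kept their sign in all 15 values under the 3 alternatives of scaling or strand. These alternatives shifted the ratios alike and downward, so the 4 members below 0 could not change sign. The 3 filters only choose which genes are compared and leave each ratio as it was. Mir214 ranged from -0.91 to -0.81 and stayed past 1.5-fold in these. Mir140 moved beyond its counting interval, to -0.0693 with DESeq2 size factors and -0.13 with library totals. The count of genes past 1.5-fold was 43, and it was 163 with at least 1 count in each library, 281 with no filter and 18 with at least 50 counts, since low genes enter or leave. Past 1.5-fold, 65.1% of genes were lower in replicate 2, or 77.4% with library totals. The corresponding share for counting intervals was 50.5% with TMM and 70.6% with library totals. Relative to all reads in place of gene counts, means were 1155 for Mir140, 97.9 for Mir214, 84.0 for Mir455, 19.4 for Mir199b and 1.47 for Mir199a-2 per 1000000 reads, and the summed share was 0.136%, the larger total being the cause. Without replicate 1 or 2, the summed share ranged from 0.334% to 0.379%, Mir140 from 2893 to 3170 CPM, Mir214 from 177 to 334, Mir455 from 209 to 232, Mir199b from 46.6 to 55.3, Mir199a-2 from 3.07 to 4.61 and Mir199a-1 from 0 to 1.70. No paired analysis was possible because the labels give 1 group. Mir199a-1 and Mir199a-2 rest on at most 19 counts a library. Every 22-base window inside their arms occurs in another annotated microRNA gene, and the part of depth in their low counts was not tested.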
